A study of Arabidopsis thaliana and Oryza sativa and Cucumis sativus with 30 samples.

Results

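The transcripts of maize root hairs were measured in 3 libraries, replicates 1, 2 and 3 of sieved hairs of the inbred line B73, out of 30 libraries in the series. The members were chosen by their group label and hold 14471 genes, which are those with a mean of 3 FPKM or more (fragments per transcript length and sequencing depth, a level that can be compared between genes). Genes under that mean were not analysed here. The study profiled root hair cells of several flowering plants, and its other sieved groups, of 3 libraries each, are Arabidopsis (Columbia), cucumber (Gy14), soybean (Williams 82), rice (Japonica) and tomato (Heinz 1706). Seedlings of all these species were grown on agarose medium at 22 °C under constant light for 4 to 5 days. Their roots were stirred in liquid nitrogen and the material was passed through a sieve to collect hairs, and libraries were made from total RNA with a low-input SMART-Seq kit. None carries a transgene or a treatment by its labels. The series design calls the 3 libraries of a group biological replicates, without saying which plants went into each, and all 3 maize libraries come from 1 inbred line.

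A root hair is a tubular outgrowth of a single epidermal cell that grows at its tip, where secretory vesicles bring new wall and membrane. Hairs enlarge the surface through which a root takes up water and poorly mobile nutrients such as phosphate. In maize, mutants without normal hairs have led to genes for an exocyst subunit, a COBRA-like wall protein, an NADPH oxidase and a cellulose synthase-like enzyme. The deposited table lists maize genes by AGPv3 identifier with no name, and a maize annotation was not used here. Genes are therefore given by identifier and with no role, and the labelled cell type was not checked against its markers.

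The 3 libraries were alike in summed and median FPKM, a unit that already divides by sequencing depth. The summed FPKM of the listed genes was 727085 in library 1, 793855 in library 2 and 741179 in library 3, and the median gene stood at 15.6, 13.8 and 14.3 FPKM. Across genes, which are not independent replicates, the Pearson correlation of log2(FPKM + 1) was 0.913 between libraries 1 and 2, 0.913 between 1 and 3, and 0.937 between 2 and 3. The absolute depth is unknown, but the values of genes read by very few fragments put library 2 at 1.27 times and library 3 at 1.38 times the depth of library 1. Each of these ratios rests on 41 genes that shared it. They are ratios of depth only if the FPKM were divided by depth with no further scaling, which is not stated. Of the listed genes, 12614 (87.2%) reached 3 FPKM in each of the 3 libraries.

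The most abundant transcript was that of GRMZM2G099496, at 14256.5 FPKM in library 1, 22264 in library 2 and 13974 in library 3 (mean 16832 ± 4707, SD, n = 3). It was the highest gene in all 3 libraries, 2.14 times the mean of the next gene and 1139 times the median gene. It held 1.96%, 2.80% and 1.89% of the summed FPKM of libraries 1, 2 and 3. Even its lowest library lay above every library of the second gene, GRMZM2G023132, whose values were 6342, 8700 and 8519 FPKM.

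GRMZM5G826700 followed with 6022, 8261 and 8646 FPKM in libraries 1, 2 and 3. GRMZM2G436856 stood at 6359, 7694 and 7081 FPKM, and GRMZM2G164229 at 6170, 6334 and 3752 FPKM. The last of these was low in library 3, whereas GRMZM5G826700 was low in library 1. The libraries of GRMZM2G436856 and GRMZM2G164229 did not overlap, but only just, since the lowest value of the former was 6359 and the highest of the latter 6334 FPKM. The order of GRMZM2G023132, GRMZM5G826700 and GRMZM2G436856 is within their spread over libraries.

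The sixth gene, GRMZM2G058622, had 3223 FPKM in library 1 and 4909 and 5596 FPKM in libraries 2 and 3. GRMZM5G886185 was the steadiest of the 10 highest genes, at 4052, 4525 and 4412 FPKM (4330 ± 247, SD, n = 3). AC188003.3_FG011 had 4698, 4309 and 2662 FPKM, with library 3 lowest as for GRMZM2G164229. AC207410.3_FG002 went the other way, with 2905, 3779 and 4537 FPKM. GRMZM2G329757, the tenth, stood at 3527, 2998 and 4302 FPKM.

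The second group of 10 had means between 3572 FPKM (GRMZM5G858914) and 2406 FPKM (AC199526.5_FG002). GRMZM2G154397 was steady at 3500, 3753 and 3407 FPKM. AC186512.3_FG001 was not, at 1887, 3668 and 3902 FPKM, and it was the only 1 of the 20 highest genes whose highest library was 2-fold or more above its lowest. Both values of libraries 2 and 3 stood apart from library 1 in that gene. Of the 20 neighbouring pairs in the order from the highest gene to the next after the 20, 18 overlapped in their libraries and 2 did not, namely GRMZM2G099496 with GRMZM2G023132 and GRMZM2G436856 with GRMZM2G164229. The order among the 20 is therefore mostly unresolved at 3 libraries. The 10 highest genes of the 3 libraries had 6 in common, the 20 highest had 17 and the 100 highest 78.

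**Figure D1:**
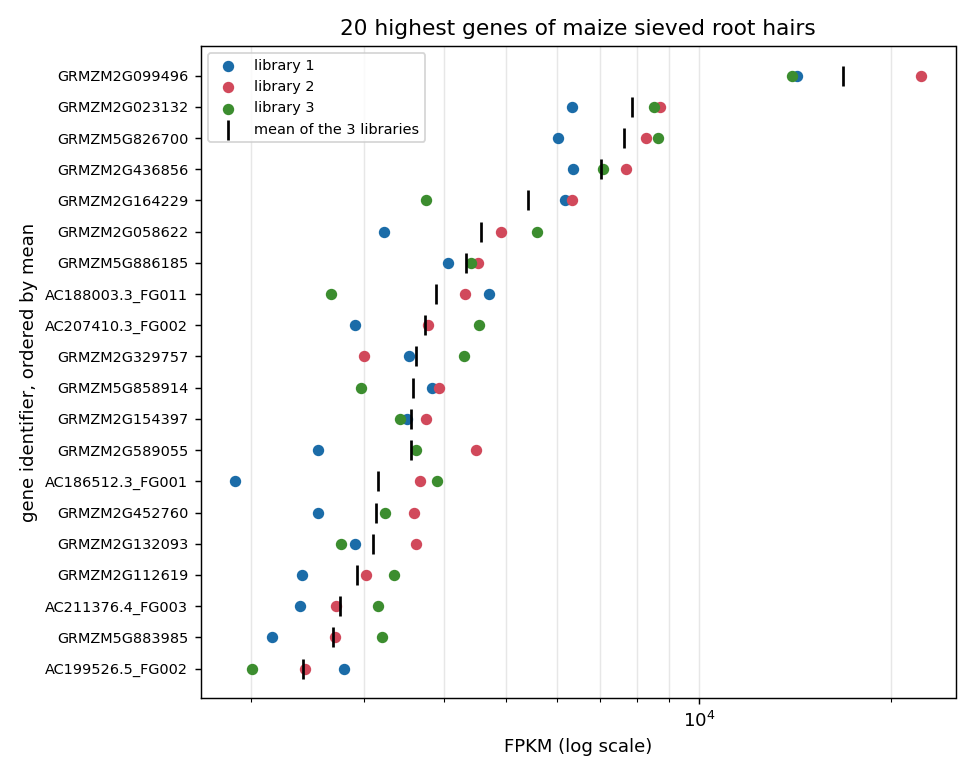
FPKM (log scale) of the 20 maize genes with the highest mean, with a point for each of the 3 libraries and a bar at their mean. GRMZM2G099496 lies apart from 13974 to 22264 FPKM, and the libraries of most neighbouring genes overlap.

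A small number of genes held a large share of the transcript level. The 10 highest genes by mean held 7.92%, 9.29% and 8.57% of the summed FPKM of libraries 1, 2 and 3 (8.59% ± 0.689, SD, n = 3). The 100 highest held 25.1%, 28.5% and 27.3%, and the 1000 highest held 56.4%, 60.9% and 58.7%. Library 1 had the smallest and library 2 the largest share at each of these sizes. On the mean level, 586 genes (4.05% of those listed) held 50% of the total and 5975 genes (41.3%) held 90%. Taken by library, the number of genes that held 50% was 665, 504 and 567 in libraries 1, 2 and 3. The shares are of the listed genes alone, so the true share in the whole transcriptome is smaller by what genes under the floor hold.

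**Figure D2:**
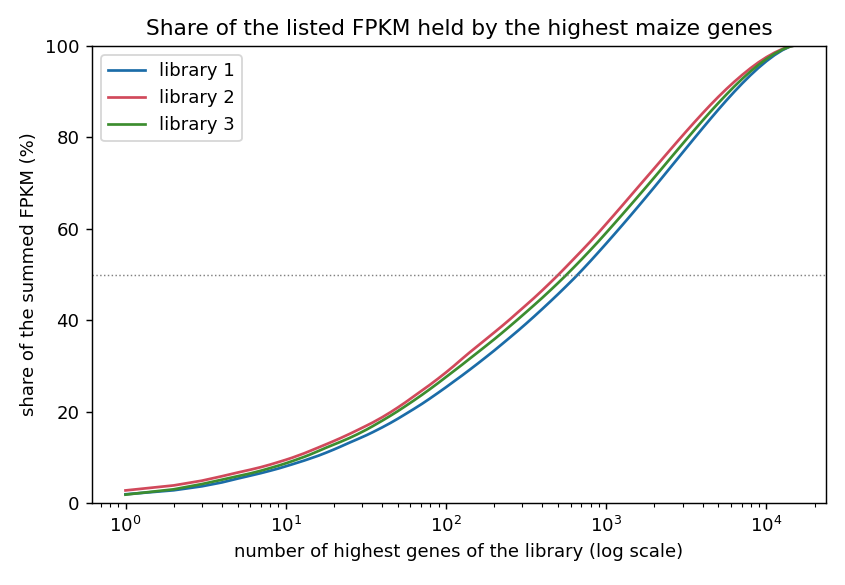
Share of the summed FPKM (%) held by the highest genes of each library, against their number (log scale), with a dotted line at 50%. The curve of library 2 crosses the line at 504 genes, that of library 3 at 567 and that of library 1 at 665.

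By level class, 5439 genes (37.6%) had a mean of 3 to 10 FPKM and together held 4.27% ± 0.611 of the total (SD, n = 3). Another 4730 genes (32.7%) of 10 to 30 FPKM held 11.2% ± 1.02, and 2966 genes (20.5%) of 30 to 100 FPKM held 20.9% ± 0.594. The largest share lay with the class second from the top, as 1253 genes (8.66%) of 100 to 1000 FPKM held 38.9% ± 0.586. Only 83 genes (0.574%) reached 1000 FPKM or more, and they held 23.1%, 26.4% and 25.2% of libraries 1, 2 and 3. Altogether 8442 genes (58.3%) fell into the same class in all 3 libraries. That share was 49.5% in the lowest class and 75.8% for genes of 100 to 1000 FPKM.

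Abundant and rare transcripts did not lean to the same library. Among the 83 genes of 1000 FPKM or more, 8 were highest in library 1, 44 in library 2 and 31 in library 3, and 51 were lowest in library 1. Over all listed genes, 40.8%, 30.7% and 28.5% were highest in libraries 1, 2 and 3, and 28.2% were lowest in library 1. Among genes of 3 to 10 FPKM, 50.3% were highest in library 1, 23.6% in library 2 and 26.1% in library 3. The share highest in library 1 went down through the classes, from 50.3% to 42.7%, 29.7%, 20.9% and 9.64%. On the log2(FPKM + 1) scale the median difference of library 1 from the mean of the other 2 was 0.21 in the lowest class and -0.28 in the highest. This lean and the smaller share that the highest genes held in library 1 are views of the same values and not separate results. Library 1 was the shallowest of the 3 by the depth ratios above and had the most genes listed at 0 (40, against 24 and 22), but the fewest under 3 FPKM (497, against 961 and 751). The part of depth in the lean of library 1 was not tested. With 1 group of 3 libraries there is no contrast to test here, and genes near the floor are listed only because their mean passed it.

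**Figure D3:**
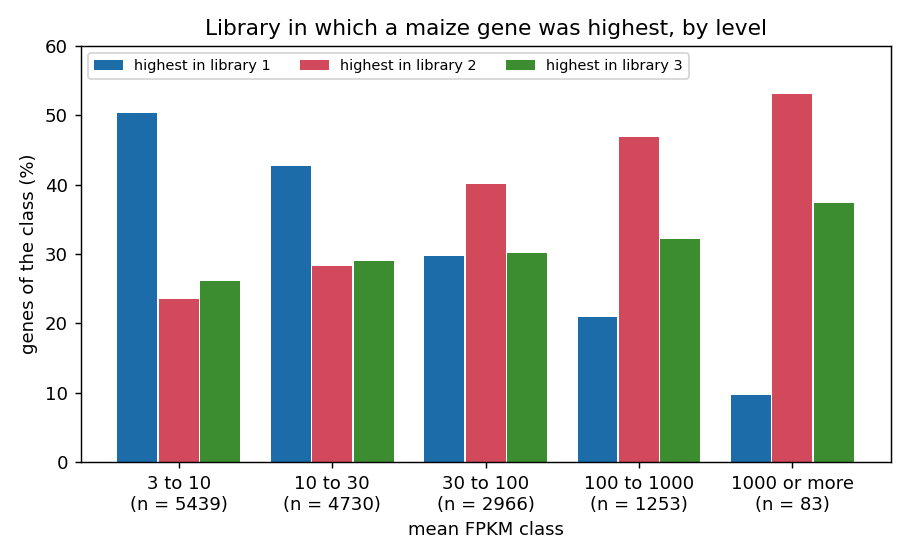
Share of the genes of each mean FPKM class (%) that were highest in library 1, 2 or 3, with the number of genes under each class. Library 1 goes down from 50.3% to 9.64% while library 2 goes up from 23.6% to 53.0%.

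Most genes were steady over the 3 libraries. The SD of log2(FPKM + 1) had a median of 0.30 over all genes, with quartiles of 0.18 and 0.46. The ratio of highest to lowest library, each with 1 FPKM added, was under 1.1 in 670 genes (4.63%) and from 1.1 to 1.5 in 6881 (47.6%). It was 2 or more in 2818 genes (19.5%) and 4 or more in 453 (3.13%). The 453 genes of 4-fold or more held 1.11% of the total level. Spread went with level, as 27.8% of genes of 3 to 10 FPKM ranged 2-fold or more, 17.4% of those of 10 to 30, and 11.2%, 11.6% and 12.0% in the 3 classes above.

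The steadiest genes with a mean of 30 FPKM or more were of moderate level. GRMZM5G862331 stood at 58.0, 57.8 and 58.1 FPKM in libraries 1, 2 and 3, and GRMZM5G862355 at 42.6, 42.4 and 42.5. GRMZM2G170313 had 77.9, 78.3 and 78.3 FPKM, GRMZM2G004997 had 50.2, 50.7 and 50.3, and GRMZM2G157758 had 112, 111 and 111. All 5 kept within 1.01-fold, which is narrower than the difference in summed FPKM between the libraries. They are the extreme of 4302 genes at this level, chosen for their small spread. Among genes of 1000 FPKM or more, GRMZM2G414475 had the smallest range, at 1761, 1848 and 1750 FPKM, and was picked after its values were seen.

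Of the 83 genes of 1000 FPKM or more, 10 ranged 2-fold or more, up to 3.08-fold, and none reached 4-fold. The 5 most abundant of these, picked after their values were seen, fell into 2 patterns. GRMZM2G056908 (932, 1978 and 1928 FPKM) and GRMZM2G027447 (839, 1673 and 1887 FPKM) were low in library 1, like AC186512.3_FG001. GRMZM5G844562 (2532, 2911 and 1439 FPKM) and GRMZM5G868202 (2306, 2557 and 1252 FPKM) were low in library 3. In each, the remaining libraries lay close together.

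The 5 most variable genes with a mean of 30 FPKM or more each had 1 library at or near 0. GRMZM5G868973 had 136 and 110 FPKM in libraries 1 and 2 but 0.0387 in library 3. GRMZM2G495829 was given as 1.2e-69 FPKM in library 1 against 105 and 104 in libraries 2 and 3. GRMZM2G538704 was listed at 0 in library 2 between 99.4 and 96.1 FPKM in libraries 1 and 3. GRMZM2G506752 was listed at 0 in library 1, with 99.9 and 34.5 FPKM in the others, and GRMZM2G557647 stood at 18.6, 0.00092 and 99.3 FPKM. An FPKM of 0 can be a failed estimate, so no fold is given for these genes.

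Other genes departed furthest upward in 1 library. GRMZM2G102138 had 91.5 FPKM in library 1, 9.33 in library 2 and 1.79 in library 3. GRMZM2G106980 had 98.9 FPKM in library 1 against 4.41 and 8.45. Both were high in library 1 alone, the first also lowest in library 3. Those furthest up in library 2 were GRMZM2G518665 (89.8 FPKM, against a listed 0 in library 1 and 16.6 in library 3) and GRMZM2G586825 (83.4 FPKM, against a listed 0 and 19.2). In library 3, GRMZM2G582344 reached 79.5 FPKM, against 0.0408 and 30.2 in libraries 1 and 2.

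For 222 genes (1.53%) the values of the 3 libraries stood in the ratio of small whole numbers after the relative depth was allowed for, so the smallest fragment numbers behind them could be read. GRMZM2G538704 came out at 3, 0 and 4 fragments in libraries 1, 2 and 3, although its values reach 99.4 FPKM. GRMZM2G506752 came out at 0, 8 and 3 fragments, GRMZM2G518665 at 0, 5 and 1, and GRMZM2G586825 at 0, 4 and 1. A 0 there allows up to 3 fragments, which are 78.2 FPKM for GRMZM2G538704 in library 2, and 47.6, 68.5 and 79.5 FPKM for the other 3 genes in library 1. Those limits cover counting error only. Common multiples of these numbers would give the same ratios, so they are the smallest numbers that match.

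The highest gene with such numbers was AC196124.2_FG002, at 840, 356 and 937 FPKM from 13, 7 and 20 fragments, so that 1 fragment was worth 64.6 FPKM in library 1. AC221037.3_FG001 had 282, 88.6 and 449 FPKM from 5, 2 and 11 fragments. At these numbers, values above 100 FPKM rest on 5 to 20 fragments in AC196124.2_FG002 and AC221037.3_FG001. Over the 222 genes, 1 fragment in library 1 was worth 0.209 to 64.6 FPKM (median 7.32), and in 139 of them it was worth at least the floor of 3 FPKM. Of the 222, 160 (72.1%) ranged 2-fold or more, beside 19.5% of all listed genes. They make up 96 (21.2%) of the 453 genes of 4-fold or more, and 78 (90.7%) of the 86 genes listed at 0 in a library. A gene listed at 0 in 1 library with a mean over the floor ranges 4-fold or more by construction, so those 78 count in each. Numbers above 20 fragments were not searched, so the higher shares are set in part by how the 222 were selected. No gene was listed at 0 in more than 1 library.

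**Figure D4:**
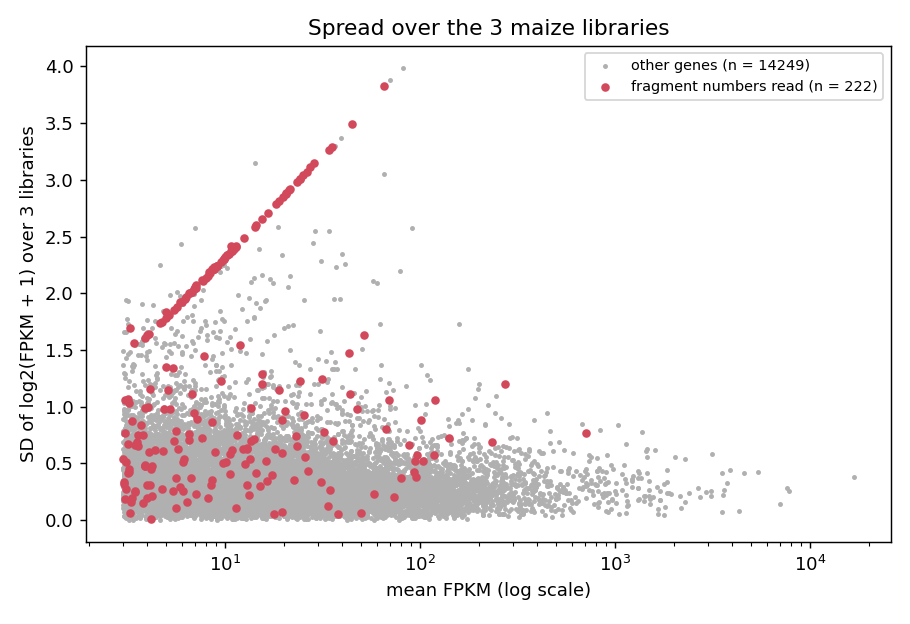
SD of log2(FPKM + 1) over the 3 libraries against mean FPKM (log scale), with a point for each of the 14471 genes, and in red the 222 genes whose smallest matching fragment numbers are at most 20 in every library. The red line of points on the left holds the 78 of these genes that are listed at 0 in 1 library, and no gene of 1000 FPKM or more reached a 4-fold range.

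At the floor, GRMZM2G020320 had 4.22, 4.72 and 0.0649 FPKM, GRMZM2G068128 had 2.58, 3.75 and 2.66, and GRMZM2G020865 had 4.04, 0.961 and 4.00. Each has a mean of 3.00 FPKM, and 1 or 2 libraries carried it over the floor. Genes with a mean under 3 FPKM are not listed, so none just outside the floor can be given. There were 1185 genes with a mean of 3 to 4 FPKM.

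The share held by the 10 highest genes was compared with that of the other sieved species by exact two-sided permutation tests over libraries, whose smallest possible p with 3 against 3 libraries is 0.1. Those tests cannot pass 0.05, and each species has its own genes and gene models. The maize libraries (7.92% to 9.29%) all lay below those of Arabidopsis (12.0% ± 0.931, SD, n = 3; exact permutation p = 0.1, adjusted 0.2 over 10 tests) and soybean (17.98% ± 6.38; exact permutation p = 0.1, adjusted 0.2). They overlapped with cucumber (9.32% ± 1.08), rice (10.8% ± 2.09) and tomato (9.46% ± 0.513), with exact permutation p of 0.4, 0.2 and 0.2, or 0.5, 0.286 and 0.286 adjusted. These overlaps and the order hold for the 10 highest genes and not in full for the 100 highest, of which maize libraries held 25.1% to 28.5%. There the difference from Arabidopsis turned, with maize 2.53 percentage points above it (exact permutation p = 0.2, not adjusted). All maize libraries then lay below those of cucumber (28.9% to 32.7%, a difference of -3.70 points against -0.73 for the 10 highest) and tomato (30.9% to 35.2%, -6.52 points against -0.87), each with an exact permutation p of 0.1, not adjusted. Those of soybean lay above maize at both sizes, and those of rice overlapped with it at both.

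Maize replicates lay close together. The median absolute deviation of a library from the gene means on the log2(FPKM + 1) scale was 0.21, 0.20 and 0.19 in maize libraries 1, 2 and 3 (0.197 ± 0.00946, SD, n = 3). All 3 were below the libraries of Arabidopsis (0.697 ± 0.189) and soybean (0.406 ± 0.116) and above those of rice (0.145 ± 0.0469), each with an exact permutation p of 0.1 and 0.2 adjusted. Cucumber (0.205 ± 0.0290, exact permutation p = 0.7) and tomato (0.208 ± 0.0235, exact permutation p = 0.6) overlapped with maize, with 0.7 and 0.667 adjusted. Each library was taken against gene means that include it, so the 3 deviations of a species depend on one another. Their SDs and permutation p-values are therefore not those of independent replicates. The difference from rice was 0.052 and became -0.0060 with library number 2 left out of both species, so its direction rests on those libraries. Leaving out 1 maize library alone ended the separation from rice, with differences of 0.023, 0.015 and 0.034 without library 1, 2 and 3 (exact permutation p = 1.0, 1.0 and 0.5), though the deviation over 2 libraries is smaller by construction. With number 1, 2 or 3 left out of both species, the difference from soybean (-0.21 with all libraries) was -0.28, -0.065 and -0.18. That from Arabidopsis (-0.50 with all libraries) was -0.27, -0.34 and -0.61. Both kept their sign, and here too the deviation over 2 libraries is smaller by construction. By the 2-fold range, 19.5% of maize genes varied, beside 76.1% in Arabidopsis, 56.2% in soybean, 27.2% in tomato, 21.9% in cucumber and 16.5% in rice.

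**Figure D5:**
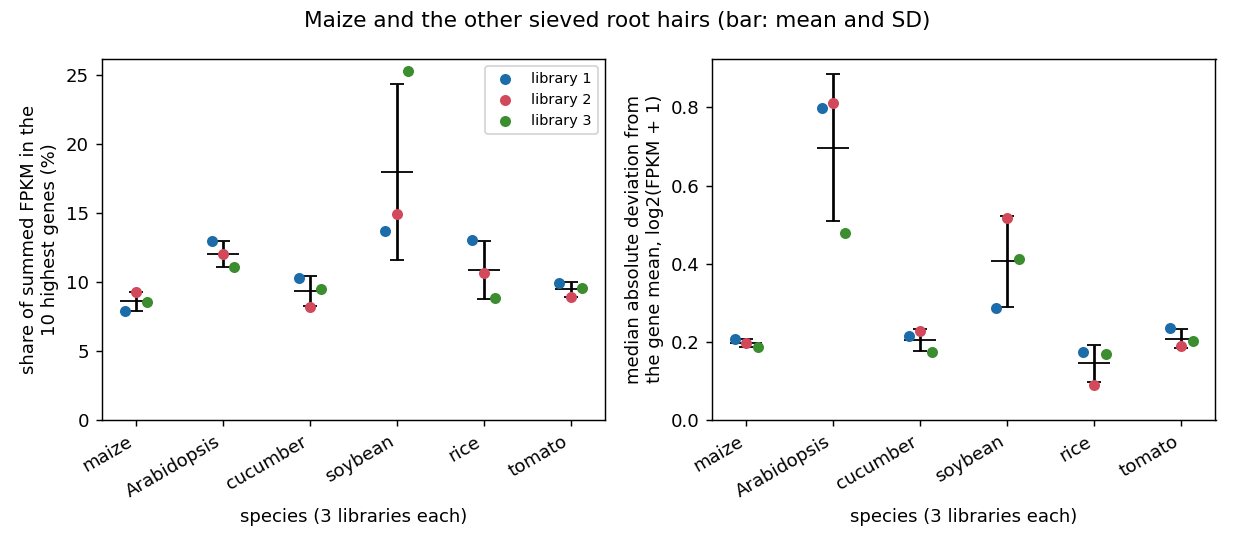
Share of the summed FPKM held by the 10 highest genes (%, left) and median absolute deviation of a library from the gene means on log2(FPKM + 1) (right) in 6 sieved species, with a point per library and bars for the mean and SD. Maize lies below Arabidopsis and soybean in both panels and above rice in the right one.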

How the data were processed

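Libraries were grouped by their labels, and the 3 maize columns were tied to replicates by number. The FPKM values were computed by the authors, per the labels and the submitters' processing notes, which name CASAVA 1.8.2, TopHat2 2.0.9 and Cufflinks with no role. Genome and gene models were AGPv3, per the labels. Whether strand was used and how reads of near-identical or overlapping genes were counted is not stated in the labels or notes. That every listed gene has a mean of 3 FPKM or more was tested on the values. An exact 0 is called listed at 0.

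Levels, shares, classes of mean FPKM and the spread of log2(FPKM + 1), with a pseudocount of 1, were computed with Python 3.11.15, numpy 2.4.6 and pandas 2.3.3, and drawn with matplotlib 3.10.9. No test was made within maize. Species were compared by exact two-sided permutation tests, Benjamini-Hochberg adjusted over 10 tests. The plants behind each library are not stated, so p-values measure only the spread between these libraries, which may be technical. The deviations of the 3 libraries of a species also depend on one another.

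Named are the 20 highest genes, of genes with a mean of 30 FPKM or more the 5 steadiest, the 5 most variable and the 2 furthest up and 2 furthest down in each library, and the 3 nearest the floor. The members and lists were chosen with earlier results of these data known. Added after the values were seen were the depth ratios, the fragment numbers, the genes shown for those numbers and the genes said to be picked. Depth ratios came from ratios shared exactly by genes of few fragments. Fragment numbers are the smallest whole numbers of at most 20 that match within 0.001 of a fragment, with values under 0.1 FPKM taken as 0. The depth ratios, fragment numbers and spread were tested on simulated data. The simulation built most values from whole fragment numbers, length and depth, as the readings assume. It did not imitate how the deposited FPKM were estimated, so it cannot show that the readings hold for these data.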

Additional observations from a re-analysis of the deposited data

How the results depend on the processing

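The share of the 10 highest maize genes (8.59%) and the 586 genes that hold 50% of the level moved by less than the SD between replicates with every alternative run. Dividing a whole library by 1 factor cannot change a share within it, so that alternative was no check on the share. For the same genes, a mean share without 1 of the 3 libraries differs from the full mean by less than that SD by construction. The cut at 10 FPKM removed a class that held 4.27% of the total, so it could raise the share only slightly. These alternatives were therefore weak checks on the share. Of the 2818 genes of 2-fold range, 1308 had a mean of 10 FPKM or more and 453 reached a 4-fold range. Both counts are parts of the 2818 and smaller by construction, so they are no check on it. By share, 27.8% of the genes of 3 to 10 FPKM ranged 2-fold or more, and 11.2% to 17.4% in the classes above. The genes of 2-fold range were 3446 with a pseudocount of 0.1, and 2704 with each library divided by its median ratio to the geometric gene means. With 1 library left out they were 1192 to 1775 (1192 without library 1, 1378 without library 2, 1775 without library 3), where a range over 2 libraries is smaller by construction. The median SD of log2(FPKM + 1), 0.295, was 0.266 among genes of 10 FPKM or more, 0.318 with a pseudocount of 0.1 and 0.227 to 0.253 with 1 library left out. Of the differences between species, that from Arabidopsis in the share of the highest genes turned from -3.44 to 2.53 percentage points with the 100 highest in place of the 10 highest. With 2 libraries on both sides, chosen after seeing the data, the difference in deviation became 0.0087 for cucumber without number 2, -0.0060 for rice without number 2 and 0.0033 for tomato without number 1; the cause was not tested. With the replicate block, pairing libraries by number across species that share only that number, the differences were the same (-3.44 for Arabidopsis) and the exact sign-flip p was 0.25 at its smallest, the least that 3 pairs allow. Depth limits the genes read by few fragments, whose FPKM moves in steps of 1 fragment.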

Other observations

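Genes with identifiers of different forms were not alike in these measures, by a split chosen after seeing the data. Identifiers that begin with GRMZM2G and carry a number of 400000 or more made up 1341 genes (9.27%), and held 72 (83.7%) of the 86 genes listed at 0 in a library and 145 (65.3%) of the 222 genes with readable fragment numbers. Among them 137 (10.2%) ranged 4-fold or more, beside 203 (1.85%) of the 10948 genes with a lower GRMZM2G number. These counts overlap and are not separate traits. The 72 genes listed at 0 passed the floor, so they range 4-fold or more by construction. Of the 86 genes listed at 0, 78 also have readable fragment numbers. Identifiers named after a clone and ending in FG and a number made up 453 genes (3.13%) but 5 of the 20 highest. At wider cuts they were 10 of the 100 highest and 10 of the 83 genes of 1000 FPKM or more. Their median was 17.0 FPKM, beside 14.8 over all listed genes.

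In 29 pairs, 58 genes carried identical values in all 3 libraries. The highest such pair was GRMZM2G108035 and GRMZM2G179215, each at 177, 177 and 216 FPKM. In 17 pairs 1 member had an identifier beginning with GRMZM6G, a form that 111 of the listed genes have. The levels of genes in these pairs are uncertain, as how shared reads were counted is not stated.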
